A study of Mus musculus with 9 samples.

Results

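The EGF receptor family and its ligands were followed as 10 genes chosen by name: the 4 receptors Egfr, Erbb2, Erbb3 and Erbb4 and the 6 ligands Tgfa, Hbegf, Areg, Btc, Egf and Nrg1. All 10 were found among the 46517 gene identifiers of the count tables, and all 10 were among the 17947 genes that passed the filter on low counts. RNA sequencing had been done on glioblastoma tissue from 3 mouse models that differ in the cre driver, with 3 tumour libraries in each model. In the Synapsin-cre model the recombinase is driven from a neuronal promoter. In the NG2-creERTM model it is driven from the promoter of the NG2 proteoglycan, which is active in oligodendrocyte precursors and pericytes, and it acts once tamoxifen is given. In the Nestin-creERT2 model it is driven from a promoter of neural stem and progenitor cells and is likewise controlled by tamoxifen. All the groups share a mixed strain background; the alleles that the recombinase acts on, the age, the sex and the site of each tumour are not stated in the labels, nor is it stated that the libraries come from separate animals, so p-values measure the spread between these libraries.

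The family works as pairs of receptors at the cell surface. EGFR, ERBB3 and ERBB4 bind ligands, ERBB2 has no known ligand and acts as a partner of the others, and ERBB3 has little kinase activity of its own and signals through its partner, mainly to PI3 kinase. The ligands are made as membrane-anchored precursors that metalloproteases cut free: TGF-alpha, amphiregulin and EGF bind EGFR, HB-EGF and betacellulin bind EGFR and ERBB4, and the neuregulins bind ERBB3 and ERBB4. EGFR is often amplified in human glioblastoma, and neuregulin acting through ERBB2 and ERBB3 is known above all from Schwann cells, the glia of peripheral nerves.

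The libraries held 23557398 to 41099967 counts in genes, with a median of 34742585. Synapsin-cre library 1 was the shallowest and stood apart in composition: the summed level of 8 neuronal marker genes was 4265 CPM (counts over library size, scaled by TMM factors) there, against 134 and 354 CPM in the other Synapsin-cre libraries, 62.1 to 464 CPM in NG2-creERTM and 779 to 1105 CPM in Nestin-creERT2. Its 6 proliferation markers summed to 71.3 CPM, where the other 8 libraries had 898 to 1966 CPM. Calls that change without that library are given both ways. Sex-linked genes also separated a pair of the models: Xist was at 1.02 to 1.28 CPM in Synapsin-cre and at 778 to 1810 CPM in Nestin-creERT2, and Ddx3y at 59.2 to 66.9 CPM in Synapsin-cre and at 0 to 0.0715 CPM in Nestin-creERT2, so that the driver and this difference in sex-linked genes cannot be told apart in that comparison. In NG2-creERTM, Xist ranged over 0.989 to 1320 CPM. Markers of oligodendrocyte precursors, such as Pdgfra and Olig2, were detected in every library, at sums over 8 genes of 576 to 2866 CPM in Synapsin-cre, 2587 to 6652 CPM in NG2-creERTM and 1863 to 8037 CPM in Nestin-creERT2.

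Egfr was high in Nestin-creERT2 and low in both other models. It encodes the receptor for EGF and TGF-alpha and lies on chromosome 11 (GRCm38, chr11:16752203-16918158, + strand). Synapsin-cre libraries 1, 2 and 3 had 26.0, 2.01 and 4.57 CPM, NG2-creERTM libraries had 15.9, 15.7 and 4.69 CPM, and Nestin-creERT2 libraries had 316, 193 and 1643 CPM. The lowest Nestin-creERT2 library was thus above the highest library of either other model, and Synapsin-cre and NG2-creERTM overlapped. Group means were 10.9 ± 13.2 CPM in Synapsin-cre, 12.1 ± 6.44 CPM in NG2-creERTM and 717 ± 804 CPM in Nestin-creERT2 (SD, n = 3 each). The Nestin-creERT2 SD exceeds its mean, with library 3 far above libraries 1 and 2. The log2 fold change was -6.05 (SE 1.28) in Synapsin-cre against Nestin-creERT2 and -5.89 (SE 1.27) in NG2-creERTM against Nestin-creERT2. Without Nestin-creERT2 library 3 these were -4.56 (SE 1.05, edgeR adjusted p = 0.463) and -4.39 (SE 1.04, edgeR adjusted p = 0.477).

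With all 9 libraries in 1 edgeR quasi-likelihood fit, neither difference in Egfr passed a Benjamini-Hochberg adjusted p of 0.05 over all genes tested: the adjusted p was 0.246 in Synapsin-cre against Nestin-creERT2 and 0.244 in NG2-creERTM against Nestin-creERT2. That fit called 0 of 17947 genes in each of the 3 comparisons (0% called). At an unadjusted p under 0.05 it held 10.8% of genes in Synapsin-cre against Nestin-creERT2, 11.3% in NG2-creERTM against Nestin-creERT2 and 12.8% in Synapsin-cre against NG2-creERTM, and 13.1% for any difference among the models. The calls depended on Synapsin-cre library 1. Without it, Egfr fell in Synapsin-cre against Nestin-creERT2 (log2 fold change -7.77, SE 1.27, adjusted p = 0.0341, 1.48% of genes called) and in NG2-creERTM against Nestin-creERT2 (-5.88, SE 0.96, adjusted p = 0.0460, 0.671% of genes called). Leaving out any other single library gave no call of a member. A fit of only the NG2-creERTM and Nestin-creERT2 libraries also called Egfr (-5.88, SE 0.99, adjusted p = 0.0446, 1.39% of genes called), and a fit of only Synapsin-cre and Nestin-creERT2 called none of the 10 genes (0.0291% of genes called). Between Synapsin-cre and NG2-creERTM the log2 fold change of Egfr was -0.16 (SE 1.03, adjusted p = 0.967) with all libraries.

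**Figure D1:**
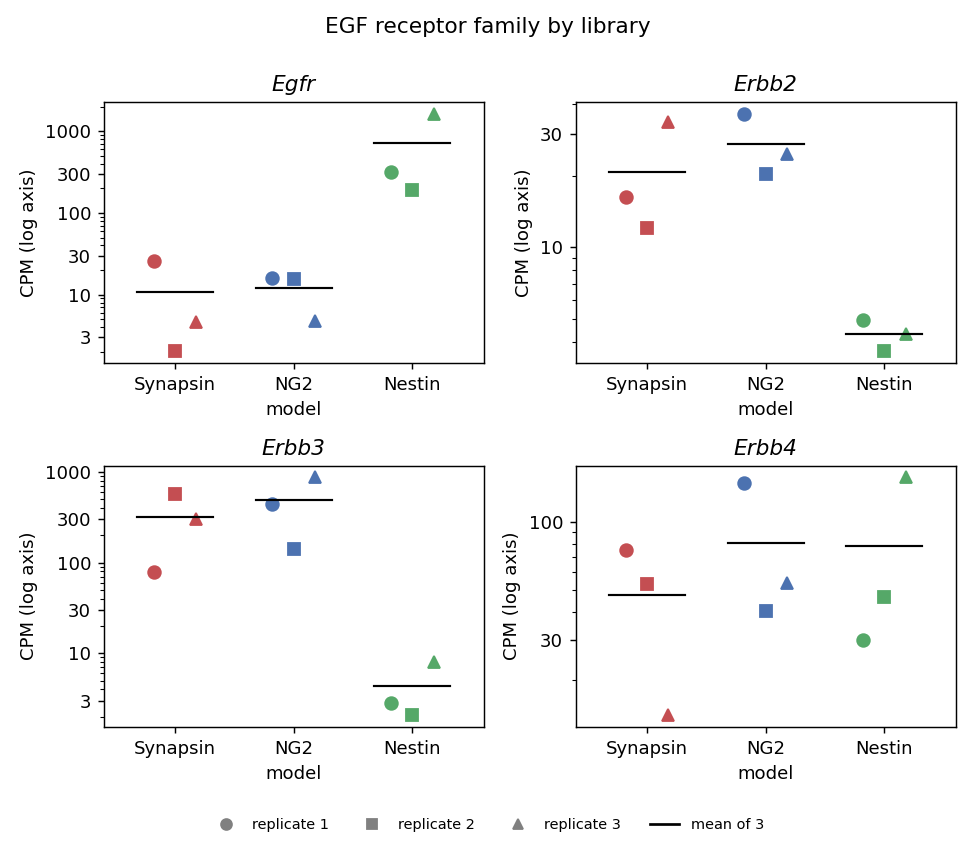
CPM of the 4 receptors on log axes, by model, with 1 point for each library and a line at the mean of the 3 libraries. Egfr lies at 193 to 1643 CPM in Nestin-creERT2 with no other library above 26.0 CPM, while Erbb3 lies at 2.08 to 8.08 CPM in Nestin-creERT2 with every other library at 79.0 CPM or more.

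The 250 bases before the Egfr start in RefSeq (GRCm38.p6, chr11:16751953-16752202, + strand) are shown because this gene had the widest range of all members, 816-fold between its lowest and highest library. Capitals mark a match to the GC box, GGGCGG on either strand, a motif bound by SP1.
Egfr: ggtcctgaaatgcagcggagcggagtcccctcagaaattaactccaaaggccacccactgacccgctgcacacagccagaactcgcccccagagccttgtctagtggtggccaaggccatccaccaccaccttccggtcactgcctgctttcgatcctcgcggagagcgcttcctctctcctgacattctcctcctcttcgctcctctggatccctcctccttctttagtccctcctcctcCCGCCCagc
The window held 1 GC box at its downstream end, 60.8% G and C, and no match to TATAAA, to the cAMP response element TGACGTCA or to the E-box CACGTG. Of 32851 promoter windows of the same length, 32.7% held a GC box, 12.4% a TATA box, 1.55% a cAMP response element and 6.02% an E-box, and the median share of G and C was 52.4%. Entries were found for 7 of the 10 members.

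The genes around Egfr were also high in Nestin-creERT2 library 3. Of the 12 tested genes that start within 1 Mb of the Egfr start, 9 had their highest level in that library, where 6.25% of all tested genes had theirs. Sec61g, which encodes a subunit of the channel that passes proteins into the endoplasmic reticulum, had 10.2, 32.4 and 41.8 CPM in Synapsin-cre libraries, 40.6, 37.8 and 26.1 CPM in NG2-creERTM libraries, and 54.7, 32.7 and 142 CPM in Nestin-creERT2. Nestin-creERT2 library 3 was far above the rest, at 4.03 times the median of the other 8. Eldr, a non-coding transcript next to Egfr, reached 42 CPM in Nestin-creERT2 library 3, or 5.36 times the median of the others. Vstm2a differed in pattern, since it was also high in Synapsin-cre library 1, at 59.0 CPM, and was at 59.6, 53.3 and 142 CPM in Nestin-creERT2.

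Each gene was next divided by its median over the remaining 8 libraries. For the 9 protein-coding neighbours whose log2 CPM averaged 1 or more, this log2 ratio had a median of 0.91, 0.09 and 2.0 in Nestin-creERT2 libraries 1, 2 and 3. Egfr itself had ratios of 4.28, 3.56 and 6.65 in those libraries, so it lay above its neighbours in each of them. Library 3 was the highest of all 9 libraries for 8 of the 9 neighbours, and their ratios there ran between 0.72 and 3.99. A wider window was chosen after these values were seen: the 19 genes lying 1 to 5 Mb away had a median ratio of 0.57 in library 1, -0.10 in library 2 and -0.08 in library 3, and the other 1010 genes of chromosome 11 had -0.16 in library 1, 0.01 in library 2 and -0.27 in library 3. In library 3 the nearest genes past 1 Mb on one side, Etaa1 (1.52, at 1.19 Mb) and Meis1 (1.79, at 2.13 Mb), were also high. On the other side no gene of this set lay between Vstm2a (at -0.49 Mb) and Cobl (0.93, at -4.52 Mb). Beyond it, Grb10 had 0.87, Ddc -1.15 and Fignl1 -0.74 in library 3. How far the higher levels reached on that side could therefore not be seen. Erbb2, on the same chromosome, had 54 tested neighbours with a median ratio of -0.06 in library 3. Copy number was not measured here.

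**Figure D2:**
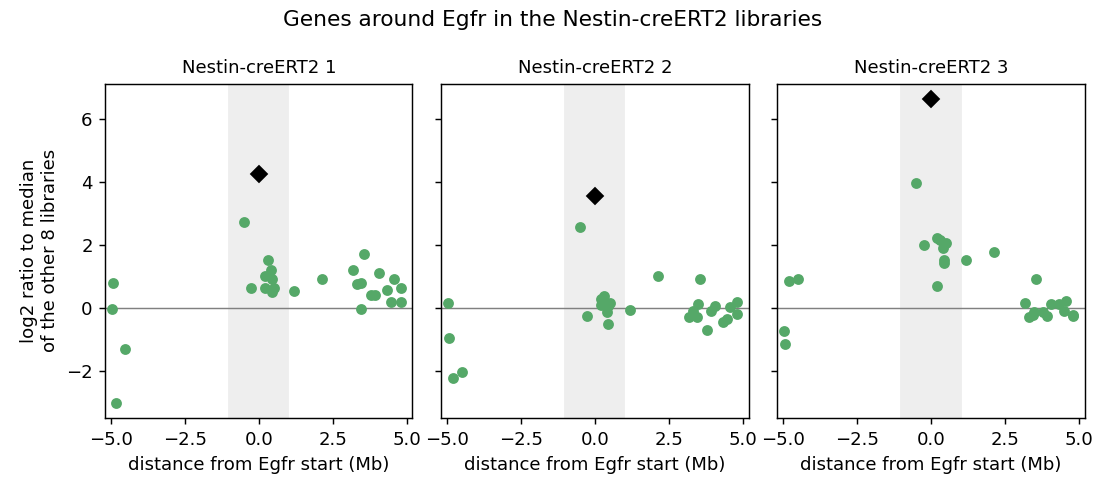
Log2 ratio of each protein-coding gene to its median over the remaining 8 libraries, against its distance from the Egfr start in Mb, in the 3 Nestin-creERT2 libraries. The black diamond is Egfr, circles are other genes and the grey band is the 1 Mb window. In library 3 the 9 neighbours in the band lie between 0.72 and 3.99, and in library 2 their median is 0.09.

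Markers of astrocytes also differed between the models in the direction of Egfr. Neuronal markers did so in NG2-creERTM, and in Synapsin-cre only without library 1. Myeloid markers differed little with all libraries. Among 8 astrocyte markers 6 had lower fitted levels in Synapsin-cre than in Nestin-creERT2 (median log2 fold change -0.76, against 0.13 over all genes tested) and 7 had lower levels in NG2-creERTM than in Nestin-creERT2 (median -2.33, against 0.02), none of them called with all libraries. In Synapsin-cre against Nestin-creERT2, edgeR called 2 of the 8 lower without Synapsin-cre library 1 (1.48% of genes called). It called 4 lower when that fit held those models alone (2.42% of genes called). In NG2-creERTM against Nestin-creERT2 it called 1 lower without that library (0.671% of genes called). The fit of those models alone called 2 of the 8 lower (1.39% of genes called). Their summed level was 215 to 4098 CPM in Synapsin-cre, 844 to 2064 CPM in NG2-creERTM and 2048 to 4044 CPM in Nestin-creERT2, and no astrocyte marker was at 0 in a whole group. The highest Synapsin-cre value belongs to library 1, which had 26.0 CPM of Egfr, the most among the 6 libraries of its model and NG2-creERTM. Among the astrocyte markers Agt, the angiotensinogen gene, separated the models as Egfr and 2.41% of genes tested did. It had 12.2, 27.7 and 13.1 CPM in Synapsin-cre libraries, 30.8, 20.3 and 26.8 CPM in NG2-creERTM libraries, and 151, 337 and 484 CPM in Nestin-creERT2. All 8 neuronal markers had lower fitted levels in NG2-creERTM than in Nestin-creERT2 (median log2 fold change -3.34), as had all 7 markers of inhibitory neurons (median -2.87) and all 5 of excitatory neurons (median -2.71). None was called with all libraries, and the fit of those models alone called 3 of the 8, 1 of the 7 and 0 of the 5 (1.39% of genes called). In Synapsin-cre against Nestin-creERT2 the 8 neuronal markers had a median of 0.32 with all libraries, and 6 of them were higher. Without Synapsin-cre library 1 the median was -2.68 and 1 was called (1.48% of genes called). When that fit held those models alone, 3 were called (2.42% of genes called), all lower. That last fit also called 2 markers of inhibitory and 2 of excitatory neurons, all lower. With all libraries the 8 myeloid markers had a median of -0.20 in Synapsin-cre and -0.19 in NG2-creERTM against Nestin-creERT2. Without Synapsin-cre library 1, 4 were called lower in Synapsin-cre than in Nestin-creERT2 (1.48% of genes called), and 0 with it. None was called in NG2-creERTM against Nestin-creERT2, without that library or in the fit of those models alone. The sum of the 8 was 90.1 to 966 CPM in Synapsin-cre, 439 to 555 CPM in NG2-creERTM and 631 to 658 CPM in Nestin-creERT2. The part of such markers in the Egfr levels was not tested, and in bulk tissue fewer cells of a type and less RNA per cell cannot be told apart.

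Erbb3 ran the opposite way. It encodes the neuregulin receptor with little kinase activity and lies on chromosome 10 (chr10:128567523-128589652, - strand). Its level was 79.0, 570 and 302 CPM in the Synapsin-cre libraries, 446, 143 and 874 CPM in the NG2-creERTM libraries, and 2.85, 2.08 and 8.08 CPM in the Nestin-creERT2 libraries. Each of the 6 Synapsin-cre and NG2-creERTM libraries was thus above all 3 Nestin-creERT2 libraries, and Synapsin-cre and NG2-creERTM overlapped. The mean was 317 ± 246 CPM in Synapsin-cre, 488 ± 367 CPM in NG2-creERTM and 4.33 ± 3.26 CPM in Nestin-creERT2 (SD, n = 3 each). With all 9 libraries the log2 fold change was 6.19 (SE 1.04, adjusted p = 0.163) in Synapsin-cre against Nestin-creERT2 and 6.81 (SE 1.07, adjusted p = 0.173) in NG2-creERTM against Nestin-creERT2, and neither passed. Without Synapsin-cre library 1, Erbb3 rose in both comparisons, by 6.65 in Synapsin-cre (SE 0.89, adjusted p = 0.0242) and by 6.82 in NG2-creERTM (SE 0.88, adjusted p = 0.0350). It also passed in the fit of NG2-creERTM and Nestin-creERT2 alone (6.82, SE 0.90, adjusted p = 0.0354). Between Synapsin-cre and NG2-creERTM the difference was -0.62 (SE 0.83, adjusted p = 0.792).

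Erbb2, the partner receptor without a ligand, sided with Erbb3 at a lower range (chr11:98412470-98437716, + strand). It was counted at 16.2, 12.1 and 33.6 CPM in Synapsin-cre libraries, 36.4, 20.2 and 24.6 CPM in NG2-creERTM libraries, and 4.97, 3.66 and 4.31 CPM in Nestin-creERT2. The Nestin-creERT2 libraries lay close together and below all 6 others, while Synapsin-cre and NG2-creERTM overlapped. It averaged 20.7 ± 11.4 CPM in Synapsin-cre, 27.1 ± 8.37 CPM in NG2-creERTM and 4.31 ± 0.654 CPM in Nestin-creERT2 (SD, n = 3 each). In log2 terms the difference was 2.26 (SE 0.47, adjusted p = 0.246) in Synapsin-cre against Nestin-creERT2 and 2.65 (SE 0.48, adjusted p = 0.217) in NG2-creERTM against Nestin-creERT2, so neither passed with all libraries. Without Synapsin-cre library 1 both passed, at 2.39 for Synapsin-cre (SE 0.48, adjusted p = 0.0491) and 2.65 for NG2-creERTM (SE 0.45, adjusted p = 0.0468). When the fit without that library was also limited to the Synapsin-cre and Nestin-creERT2 models, Erbb2 had an adjusted p of 0.0621 and did not pass, whereas Egfr and Erbb3 did (adjusted p of 0.0378 and 0.0176, 2.42% of genes called). The gene overlaps Mien1 on the opposite strand, but reads were counted by strand, and counts without strand gave 2.24 (SE 0.47) for Synapsin-cre and 2.66 (SE 0.48) for NG2-creERTM against Nestin-creERT2.

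Erbb4, a receptor for neuregulins, HB-EGF and betacellulin that is typical of neurons (chr1:68032186-69108059, - strand), showed no order of the models. It had 74.6, 53.0 and 13.9 CPM in Synapsin-cre libraries, 148, 40.4 and 53.3 CPM in NG2-creERTM libraries, and 29.9, 46.2 and 157 CPM in Nestin-creERT2. Every pair of groups overlapped, and 1 library in each of the NG2-creERTM and Nestin-creERT2 groups was well above its companions. Its log2 fold change was -0.72 (SE 0.79, adjusted p = 0.784) in Synapsin-cre against Nestin-creERT2, 0.05 (SE 0.78, adjusted p = 0.987) in NG2-creERTM against Nestin-creERT2 and -0.77 (SE 0.79, adjusted p = 0.721) in Synapsin-cre against NG2-creERTM.

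Among the 10 genes, Egfr, Erbb2 and Erbb3 were those whose 3 Nestin-creERT2 libraries did not overlap the 6 other libraries: Erbb2 and Erbb3 were higher in the 6, as were 2.5% of genes tested, and Egfr was lower in the 6, as were 2.41% (4.9% in either direction). Between Synapsin-cre and Nestin-creERT2 alone, 4 of the 10 did not overlap (14.7% of genes tested): Erbb2 and Erbb3 were higher (8.46% of genes tested), and Egfr and Nrg1 lower (6.26%). Between NG2-creERTM and Nestin-creERT2, 4 of the 10 did not overlap (25.1% of genes tested): Erbb2, Erbb3 and Btc were higher (11% of genes tested), and Egfr lower (14.2%). Between Synapsin-cre and NG2-creERTM, 2 of the 10 did not overlap (13.8% of genes tested), a share near that of the background: Egf was higher (8.04%) and Btc lower (5.76%).

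Set per kilobase of exon so that genes can be compared, the receptor transcripts were mostly Erbb3 in Synapsin-cre and NG2-creERTM and mostly Egfr in Nestin-creERT2. Egfr made up 0.175 to 9.33% of the summed CPM per kb of the 4 receptors in Synapsin-cre, 0.268 to 4.31% in NG2-creERTM and 78.1 to 90.7% in Nestin-creERT2. Erbb3 made up 53.4 to 93.3% in Synapsin-cre, 73.5 to 93.9% in NG2-creERTM and 0.839 to 1.58% in Nestin-creERT2. These shares describe RNA, and the groups did not overlap in either of them when Nestin-creERT2 is set against the others. Erbb4 held 1.94 to 24.6% in Synapsin-cre, 2.79 to 12.6% in NG2-creERTM and 7.61 to 17.1% in Nestin-creERT2. Erbb2 held 2.28 to 12.7% in Synapsin-cre, 3.05 to 12% in NG2-creERTM and 0.517 to 3.22% in Nestin-creERT2.

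The log2 ratio of Egfr to Erbb3, both per kb, gives this contrast in 1 value and does not depend on the scaling between libraries. It was -2.52, -9.06 and -6.96 in the Synapsin-cre libraries, -5.72, -4.09 and -8.45 in the NG2-creERTM libraries, and 5.88, 5.62 and 6.76 in the Nestin-creERT2 libraries. All 6 Synapsin-cre and NG2-creERTM libraries had more Erbb3 than Egfr transcript, and all 3 of Nestin-creERT2 had more Egfr. Synapsin-cre library 1 was nearest to the Nestin-creERT2 libraries. Over the 9 libraries the log2 CPM of Egfr and Erbb3 had a Pearson correlation of -0.89, that of Erbb2 and Erbb3 0.90 and that of Egfr and Erbb2 -0.80; the points share the 3 models, and these values describe the same separation.

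**Figure D3:**
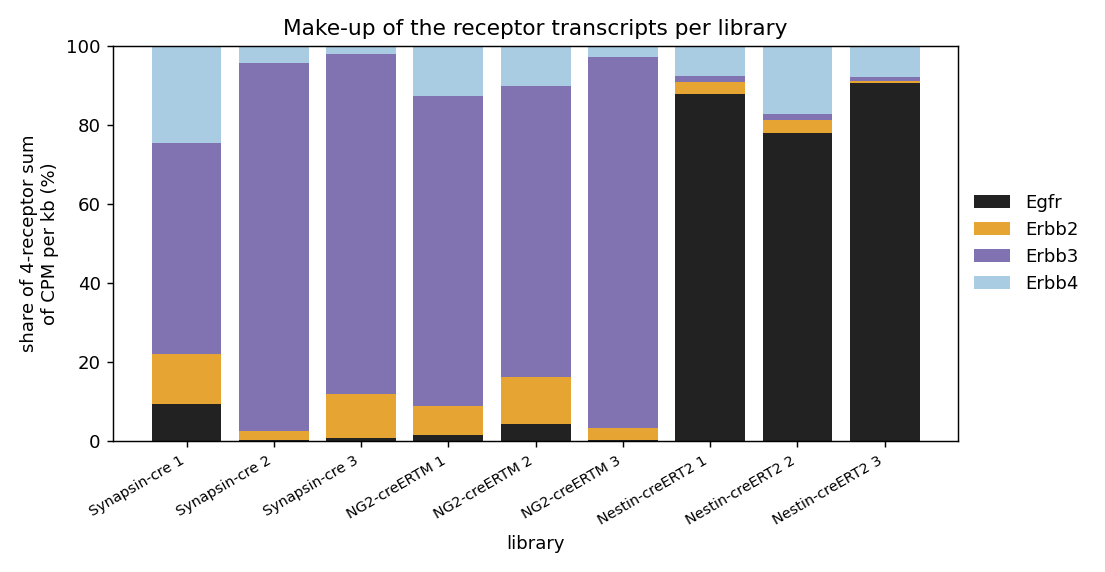
Share of each receptor in the summed CPM per kb of the 4 receptors, in percent, for each of the 9 libraries. Egfr fills 78.1 to 90.7% of the Nestin-creERT2 bars and Erbb3 fills 53.4 to 93.9% of the bars of the other 6 libraries.

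Markers of Schwann cells, in which Erbb3 is a defining receptor, moved with Erbb3 and Erbb2. All 9 Schwann cell markers had higher fitted levels in Synapsin-cre than in Nestin-creERT2 (median log2 fold change 2.17, against 0.13 over all genes tested), and all 9 in NG2-creERTM than in Nestin-creERT2 (median 2.92, against 0.02), with none called in the fit of all libraries. In the fit of NG2-creERTM and Nestin-creERT2 alone 3 of the 9 passed (1.39% of genes called). Without Synapsin-cre library 1, 2 of the 9 passed in Synapsin-cre against Nestin-creERT2 (1.48% of genes called). In that fit 3 passed in NG2-creERTM against Nestin-creERT2 (0.671% of genes called). When it held Synapsin-cre and Nestin-creERT2 alone, 3 of the 9 markers passed (2.42% of genes called). Their summed level was 312, 1321 and 1414 CPM in Synapsin-cre libraries, 1487, 1140 and 1959 CPM in NG2-creERTM libraries, and 190, 200 and 544 CPM in Nestin-creERT2, with no marker at 0 in a whole group. Synapsin-cre library 1 thus lay below Nestin-creERT2 library 3, unlike for Erbb3 and Erbb2. Much of that sum is Sox10, a factor that oligodendrocytes also express. Of 7 oligodendrocyte markers, 4 were higher and 3 lower in Synapsin-cre than in Nestin-creERT2, and 2 were higher and 5 lower in NG2-creERTM. In the fit of Synapsin-cre and Nestin-creERT2 without Synapsin-cre library 1, Cldn11 and Opalin were called higher and Mobp lower (2.42% of genes called). Foxd3, a neural crest factor, had 38.1, 25.0 and 72.7 CPM in Synapsin-cre libraries, 14.4, 18.2 and 57.2 CPM in NG2-creERTM libraries, and 0.0588, 0.277 and 0.143 CPM in Nestin-creERT2. Neither Synapsin-cre nor NG2-creERTM overlapped Nestin-creERT2, where 8.46% and 11% of genes tested were higher without overlap. The melanocyte list, whose cells also use ERBB3, had 3 of 6 genes tested. The fit of NG2-creERTM and Nestin-creERT2 alone called 2 of them higher in NG2-creERTM (1.39% of genes called). The fit without Synapsin-cre library 1 called 1 higher in that comparison (0.671% of genes called). The sum of the melanocyte list was 20.6 to 107 CPM in Synapsin-cre, 61.1 to 205 CPM in NG2-creERTM and 6.23 to 13.7 CPM in Nestin-creERT2. The sum of 5 fibroblast markers separated Nestin-creERT2 from the other models in the direction of Erbb3. It was 120 to 142 CPM in Synapsin-cre, 98.9 to 805 CPM in NG2-creERTM and 11.7 to 42.2 CPM in Nestin-creERT2. Taken singly, Col1a1 and Col3a1 did so, as did 2.5% of genes tested, whereas Col1a2, Dcn and Lum overlapped. Col1a2 began at 21.8 CPM in Synapsin-cre and reached 33.1 CPM in Nestin-creERT2. Dcn fell to 0.869 CPM in NG2-creERTM, below every Nestin-creERT2 library. Lum overlapped through Synapsin-cre alone. Without Synapsin-cre library 1, 1 of those 5 was called higher in each comparison against Nestin-creERT2. That fit called 1.48% of genes for Synapsin-cre and 0.671% for NG2-creERTM. Limited to Synapsin-cre and Nestin-creERT2, it called 2 of the 5 higher (2.42% of genes called). For 6 markers of pericytes and smooth muscle the sum was 124 to 201 CPM in Synapsin-cre, 136 to 416 CPM in NG2-creERTM and 66.9 to 94.1 CPM in Nestin-creERT2. Against Nestin-creERT2, all 6 had higher fitted levels in Synapsin-cre, and 5 were higher and 1 lower in NG2-creERTM. None of the 6 was called with all libraries, without Synapsin-cre library 1 or in the fits of 2 models (0 to 2.42% of genes called). The part of such cells in the levels of Erbb3 and Erbb2 was not tested.

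Among the ligands, Tgfa and Hbegf had the highest median CPM per kb over the libraries and neither ordered the models. Tgfa, which encodes TGF-alpha (chr6:86195223-86275719, + strand), had 52.8, 111 and 69.3 CPM in Synapsin-cre libraries, 419, 119 and 68.0 CPM in NG2-creERTM libraries, and 67.0, 23.5 and 261 CPM in Nestin-creERT2. The groups overlapped, with 1 NG2-creERTM and 1 Nestin-creERT2 library standing high. Its log2 fold changes were -0.60 (SE 0.87, adjusted p = 0.846) in Synapsin-cre against Nestin-creERT2, 0.78 (SE 0.88, adjusted p = 0.786) in NG2-creERTM against Nestin-creERT2 and -1.38 (SE 0.89, adjusted p = 0.531) in Synapsin-cre against NG2-creERTM. In Nestin-creERT2 the library with the most Egfr, library 3, also had the most Tgfa, and library 2 had the least of both.

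Hbegf, the ligand of EGFR and ERBB4 that binds heparin (chr18:36504927-36515805, - strand), had 28.6, 27.5 and 49.1 CPM in Synapsin-cre libraries, 239, 42.5 and 88.2 CPM in NG2-creERTM libraries, and 168, 23.6 and 57.7 CPM in Nestin-creERT2. The groups overlapped here too, and the Synapsin-cre libraries stayed in a narrow range. Nestin-creERT2 library 1, the highest of its model, also had 6021 CPM in the sum of 5 choroid plexus markers, where Nestin-creERT2 libraries 2 and 3 had 5.96 and 8.17 CPM; the part of such cells in the Hbegf level was not tested. Its log2 fold change was -1.24 (SE 0.77, adjusted p = 0.594) in Synapsin-cre against Nestin-creERT2, 0.57 (SE 0.76, adjusted p = 0.822) in NG2-creERTM against Nestin-creERT2 and -1.81 (SE 0.78, adjusted p = 0.381) in Synapsin-cre against NG2-creERTM. Tgfa and Hbegf together held most of the summed CPM per kb of the 6 ligands: Tgfa made up 46.2 to 72.2% in Synapsin-cre, 22.9 to 65.7% in NG2-creERTM and 21.1 to 74.5% in Nestin-creERT2, and Hbegf made up 24.1 to 44.0% in Synapsin-cre, 30.6 to 39.9% in NG2-creERTM and 22.1 to 71.0% in Nestin-creERT2.

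Areg, which encodes amphiregulin, an EGFR ligand whose gene is known to respond to cAMP and to EGFR signalling itself, varied most within a model (chr5:91139599-91148432, + strand). It had 0.797, 0.331 and 1.56 CPM in Synapsin-cre libraries, 56.0, 0.157 and 12.7 CPM in NG2-creERTM libraries, and 3.61, 0.249 and 0.453 CPM in Nestin-creERT2. Of the NG2-creERTM libraries, 1 and 3 were above every other library and library 2 was the lowest of all 9, at 6 counts, so the groups overlapped. The fitted log2 difference was -0.68 (SE 1.52, adjusted p = 0.906) in Synapsin-cre against Nestin-creERT2, 4.0 (SE 1.67, adjusted p = 0.426) in NG2-creERTM against Nestin-creERT2 and -4.67 (SE 1.73, adjusted p = 0.357) in Synapsin-cre against NG2-creERTM. In the NG2-creERTM libraries 1 and 3 it made up 28.5 and 22.8% of the ligand sum per kb, and in the other 7 libraries at most 6.07%.

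Btc, which encodes betacellulin, lies 218 kb from Areg by their lower coordinates (chr5:91357261-91402994, - strand) and was also highest in NG2-creERTM. It had 1.02, 0.0552 and 1.56 CPM in Synapsin-cre libraries, 4.11, 1.62 and 24.5 CPM in NG2-creERTM libraries, and 1.03, 0.914 and 0.476 CPM in Nestin-creERT2. Every NG2-creERTM library was above every other library, by a small margin for library 2. On the log2 scale the difference was 0.12 (SE 1.16, adjusted p = 0.984) in Synapsin-cre against Nestin-creERT2, 3.64 (SE 1.26, adjusted p = 0.364) in NG2-creERTM against Nestin-creERT2 and -3.52 (SE 1.26, adjusted p = 0.357) in Synapsin-cre against NG2-creERTM. DESeq2 on the same counts called Btc in both NG2-creERTM comparisons (adjusted p of 0.0297 and 0.0466), and Areg in Synapsin-cre against NG2-creERTM (adjusted p = 0.0312); it called 3.47% of genes in NG2-creERTM against Nestin-creERT2 and 2.49% in Synapsin-cre against NG2-creERTM.

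The RefSeq windows of these neighbouring ligand genes are set side by side because both were highest in NG2-creERTM libraries (GRCm38.p6, chr5:91139349-91139598, + strand, for Areg and chr5:91402995-91403244, - strand, for Btc). Capitals mark, from left to right in Areg, a cAMP response element, a GC box and a TATA box.
Areg: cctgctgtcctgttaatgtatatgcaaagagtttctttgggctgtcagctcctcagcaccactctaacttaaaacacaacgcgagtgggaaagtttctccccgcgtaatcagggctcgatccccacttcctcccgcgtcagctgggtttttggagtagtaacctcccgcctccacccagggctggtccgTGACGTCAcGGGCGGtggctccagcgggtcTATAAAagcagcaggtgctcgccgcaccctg
Btc: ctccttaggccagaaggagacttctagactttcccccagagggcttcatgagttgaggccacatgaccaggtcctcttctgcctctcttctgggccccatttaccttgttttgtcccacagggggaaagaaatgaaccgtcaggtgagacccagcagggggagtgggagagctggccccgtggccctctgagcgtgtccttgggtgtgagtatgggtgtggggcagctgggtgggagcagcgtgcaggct
The Areg window held 1 match to each of those motifs, with no overlap, and the Btc window held none of the 4 motifs searched. Their shares of G and C were 57.2% and 59.6%.

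Egf itself was low in all models (chr3:129677565-129755316, - strand). It had 17.4, 6.04 and 3.88 CPM in Synapsin-cre libraries, 1.62, 1.54 and 3.77 CPM in NG2-creERTM libraries, and 2.14, 4.35 and 3.98 CPM in Nestin-creERT2. Synapsin-cre lay above NG2-creERTM without overlap, though 3.88 and 3.77 CPM almost meet, and overlapped Nestin-creERT2. The log2 fold change in Synapsin-cre against NG2-creERTM was 1.97 (SE 0.70, adjusted p = 0.357), and the highest library was Synapsin-cre 1, which had the most neuronal RNA. In the fit of Synapsin-cre and NG2-creERTM alone without that library it was 1.07 (SE 0.65, adjusted p = 0.634). Against Nestin-creERT2 the values were 1.38 (SE 0.69, adjusted p = 0.512) for Synapsin-cre and -0.59 (SE 0.68, adjusted p = 0.793) for NG2-creERTM.

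Nrg1, the neuregulin that binds ERBB3 and ERBB4 (chr8:31814551-32884029, - strand), was low throughout. It had 5.0, 0.359 and 2.89 CPM in Synapsin-cre libraries, 7.58, 1.86 and 8.31 CPM in NG2-creERTM libraries, and 5.08, 5.10 and 10.1 CPM in Nestin-creERT2. Synapsin-cre was below Nestin-creERT2 without overlap, by 5.0 against 5.08 CPM at the nearest, and NG2-creERTM overlapped both. The log2 fold change was -1.31 (SE 0.90, adjusted p = 0.640) in Synapsin-cre against Nestin-creERT2, -0.20 (SE 0.88, adjusted p = 0.955) in NG2-creERTM against Nestin-creERT2 and -1.11 (SE 0.89, adjusted p = 0.630) in Synapsin-cre against NG2-creERTM. Nrg1 did not rank the libraries as its receptor gene Erbb3 did: NG2-creERTM library 3 was high in both, Nestin-creERT2 library 3 only in Nrg1, and over the 9 libraries the Pearson correlation of their log2 CPM was -0.34.

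**Figure D4:**
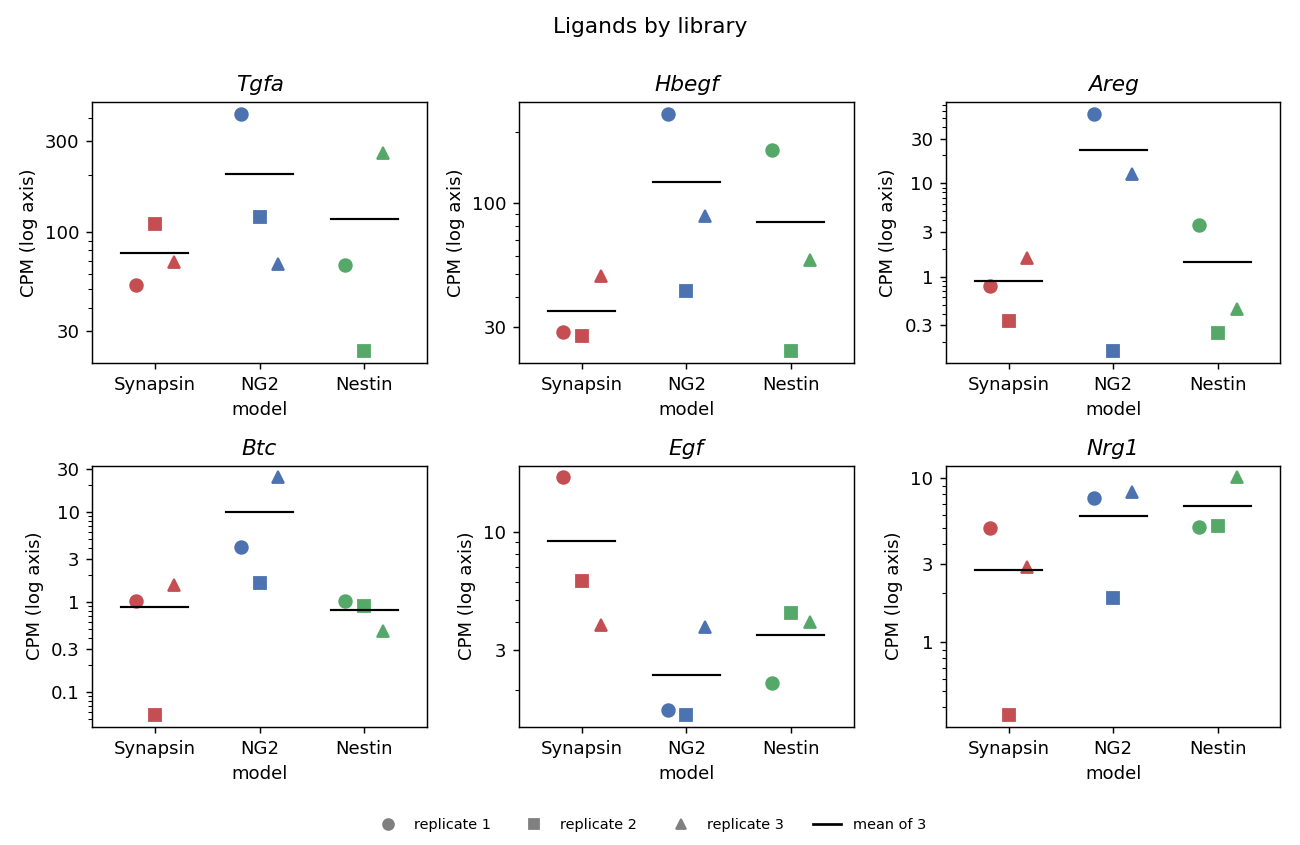
CPM of the 6 ligands on log axes, by model, with 1 point for each library and a line at the mean of the 3 libraries. Areg runs between 0.157 and 56.0 CPM inside NG2-creERTM alone, and Tgfa and Hbegf stay above 23 CPM in every library.

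Some other tools and settings called more. Limma voom without sample quality weights called 0 of 17947 genes in each comparison and for any difference among the models. DESeq2 called Egfr, Erbb2 and Erbb3 in Synapsin-cre against Nestin-creERT2 (2.77% of genes called) and the same genes with Btc in NG2-creERTM against Nestin-creERT2. A test for any difference among the models called Egfr, Erbb2, Erbb3, Areg and Btc with DESeq2 (4.84% of genes called), Egfr and Erbb3 with limma voom and sample quality weights (0.524%), Egfr and Erbb3 with edgeR and no filter (0.0747%), and Egfr, Erbb2 and Erbb3 with edgeR without Synapsin-cre library 1 (1.87%). Weighted voom called Egfr and Erbb3 in Synapsin-cre against Nestin-creERT2 (1.48% of genes called), and these with Erbb2 in NG2-creERTM against Nestin-creERT2 (0.892%). With no filter, Erbb3 alone of the 10 was called in each comparison against Nestin-creERT2 (0.039% of genes called in each). In Synapsin-cre against NG2-creERTM, edgeR called no member without Synapsin-cre library 1, whether fitted with 3 models (0.00541% of genes called) or with the 2 compared (0.00566%).

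The order of the model means differed between the genes. For Egfr it was Synapsin-cre, NG2-creERTM, Nestin-creERT2 from low to high, with the step between the lower pair within their spread and Nestin-creERT2 apart without overlap, though its SD was wider than its distance from the others. For Erbb2 and Erbb3 the order was Nestin-creERT2, Synapsin-cre, NG2-creERTM, and here the step between the upper pair was within their spread. For Erbb4 and the 6 ligands no step between neighbours in the order exceeded the SD of the group with the wider spread.

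**Figure D5:**
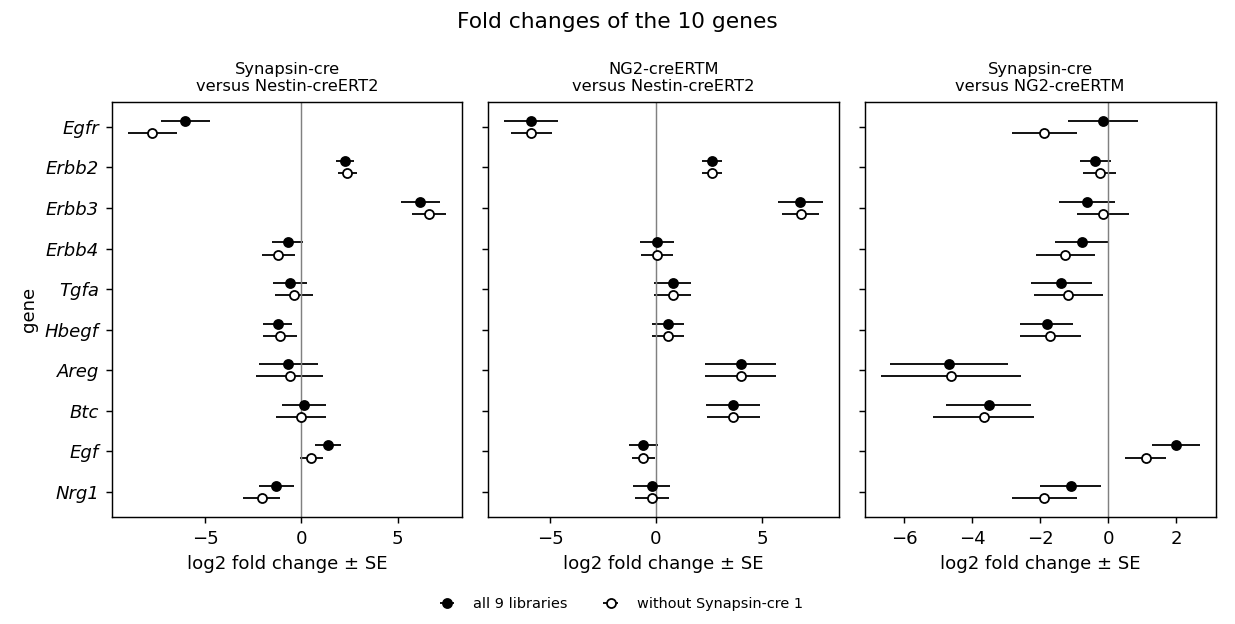
Log2 fold change with its SE for each of the 10 genes in the 3 comparisons, positive where the first-named model is higher. Filled points are the fit of all 9 libraries and open points the fit without Synapsin-cre library 1. Egfr (-6.05 and -5.89) and Erbb3 (6.19 and 6.81) lie farthest from 0 against Nestin-creERT2, and Egfr moves to -7.77 in Synapsin-cre against Nestin-creERT2 without that library.

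The other ligands of the family were low in most libraries. Nrg2 had 2.20 to 23.5 CPM in Synapsin-cre, 5.18 to 5.91 CPM in NG2-creERTM and 4.52 to 6.74 CPM in Nestin-creERT2, so the groups overlapped. Of Ereg, Epgn, Nrg2, Nrg3 and Nrg4, 4 were tested and none passed in any of the 3 comparisons (0% of genes called with all libraries). Nrg4 did not pass the filter. Ereg, which encodes epiregulin and neighbours Areg, had 0, 0.166 and 1.05 CPM in Synapsin-cre libraries, 9.44, 0.131 and 2.93 CPM in NG2-creERTM libraries, and 3.32, 0.111 and 0.0476 CPM in Nestin-creERT2. Its high libraries in NG2-creERTM and Nestin-creERT2 were the same libraries in which Areg was high, namely NG2-creERTM 1 and 3 and Nestin-creERT2 1. Nrg3, a neuregulin that binds ERBB4, had 10.9, 2.34 and 0.331 CPM in Synapsin-cre libraries, 0.719, 0.235 and 0.918 CPM in NG2-creERTM libraries, and 3.61, 4.96 and 5.55 CPM in Nestin-creERT2. Its log2 fold change in NG2-creERTM against Nestin-creERT2 was -2.91 (SE 1.09, edgeR adjusted p = 0.393). It was lower there without overlap, as were 14.2% of genes tested.

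Ligands must be cut free to act at a distance, and 10 genes of that step were listed: the metalloproteases Adam9, Adam10, Adam12, Adam17 and Adam19, the protease Bace1, and Rhbdf1, Rhbdf2, Rhbdl2 and Frmd8. None passed with all libraries (0% of genes called). In NG2-creERTM against Nestin-creERT2, 9 of 10 had higher fitted levels (median log2 fold change 0.56, against 0.02 over all genes tested). The counts were 4 higher and 6 lower in Synapsin-cre against Nestin-creERT2 (median -0.05, against 0.13) and 3 higher and 7 lower in Synapsin-cre against NG2-creERTM (median -0.33, against 0.08). Rhbdf2, which encodes iRhom2, the partner that brings ADAM17 to the cell surface, had 11.4, 7.78 and 10.8 CPM in Synapsin-cre libraries, 9.92, 11.6 and 14.8 CPM in NG2-creERTM libraries, and 5.02, 3.13 and 4.31 CPM in Nestin-creERT2. As with Erbb2 and 2.5% of genes tested, the 6 Synapsin-cre and NG2-creERTM libraries were above all 3 of Nestin-creERT2. The log2 fold change of Rhbdf2 against Nestin-creERT2 was 1.26 for Synapsin-cre (SE 0.41, edgeR adjusted p = 0.361) and 1.54 for NG2-creERTM (SE 0.41, edgeR adjusted p = 0.304). The log2 fold change of Adam17 itself was 0.59 for Synapsin-cre and 0.96 for NG2-creERTM.

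Of 10 genes that restrain the receptors, 9 were tested and none passed with all libraries (0% of genes called). Their median log2 fold change was 0.40 in Synapsin-cre against Nestin-creERT2, 0.14 in NG2-creERTM against Nestin-creERT2 and 0.03 in Synapsin-cre against NG2-creERTM, where all genes tested had 0.13, 0.02 and 0.08. Lrig1, a membrane protein that promotes EGFR breakdown, had the largest fold change of the list against Nestin-creERT2. It had 165, 51.1 and 65.8 CPM in Synapsin-cre libraries, 113, 245 and 59.7 CPM in NG2-creERTM libraries, and 356, 254 and 341 CPM in Nestin-creERT2. The 3 Nestin-creERT2 libraries were above all others, as for 2.41% of genes tested, by a small margin over NG2-creERTM library 2. Its log2 fold change against Nestin-creERT2 was -1.75 for Synapsin-cre (SE 0.59, edgeR adjusted p = 0.370) and -1.19 for NG2-creERTM (SE 0.58, edgeR adjusted p = 0.484). In the fit of Synapsin-cre and Nestin-creERT2 alone without Synapsin-cre library 1, Lrig1 fell (log2 fold change -2.44, SE 0.35, edgeR adjusted p = 0.0283, 2.42% of genes called) and was the 1 gene of the list to pass; with NG2-creERTM in the fit it did not pass. For Errfi1, which encodes an inhibitor of the EGFR kinase, the log2 fold change against Nestin-creERT2 was 0.58 for Synapsin-cre and 0.05 for NG2-creERTM.

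No downstream gene of the lists was called with all libraries, where the fit called 0 of 17947 genes in each comparison. Of 16 adaptors and effectors all were tested and none passed with all libraries, and their median log2 fold change was 0.01 in Synapsin-cre against Nestin-creERT2, 0.10 in NG2-creERTM against Nestin-creERT2 and 0.001 in Synapsin-cre against NG2-creERTM. Plcg1, the phospholipase that docks on activated EGFR, had -1.02 in NG2-creERTM against Nestin-creERT2 and 1.03 in Synapsin-cre against NG2-creERTM (edgeR adjusted p of 0.286 and 0.357). Of 14 genes known to follow ERK activity, such as the phosphatase gene Dusp6 and the inhibitor gene Spry4, none passed with all libraries, with a median of 0.06 in Synapsin-cre against Nestin-creERT2, 0.35 in NG2-creERTM against Nestin-creERT2 and 0.03 in Synapsin-cre against NG2-creERTM. Dusp6 had 42.2, 188 and 120 CPM in Synapsin-cre libraries, 161, 119 and 239 CPM in NG2-creERTM libraries, and 154, 115 and 94.8 CPM in Nestin-creERT2, so the groups overlapped. Phlda1 had the widest difference of that list, with log2 fold changes of 2.07 in Synapsin-cre against Nestin-creERT2 (SE 0.84, edgeR adjusted p = 0.432) and 1.37 in NG2-creERTM against Nestin-creERT2. In the fit of Synapsin-cre and Nestin-creERT2 alone without Synapsin-cre library 1 it rose (2.6, SE 0.50, edgeR adjusted p = 0.0498, 2.42% of genes called). It was the 1 gene of the 14 to pass, and with NG2-creERTM in the fit none passed.

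Other genes followed the receptors closely across the 9 libraries. Among 12799 protein-coding genes, those whose log2 CPM correlated best with Egfr were Zfp931 (Pearson r = 0.951), Ppp1r3d (0.948) and Ttc9c (0.931), none of them on chromosome 11. For Erbb2 they were Gtpbp1 (0.98), Fhdc1 (0.965) and Cmtm5 (0.965). For Erbb3 they were Mcam (0.962), which encodes an adhesion molecule first known from melanoma, Dgka (0.960) and Esyt1 (0.955). Dgka and Esyt1 both start within 1 Mb of Erbb3 on chromosome 10. Dgka, a diacylglycerol kinase gene, had 31.7, 120 and 75.3 CPM in Synapsin-cre libraries, 58.7, 31.1 and 134 CPM in NG2-creERTM libraries, and 9.26, 11.9 and 15.3 CPM in Nestin-creERT2. Its 3 Nestin-creERT2 libraries were the lowest, as for 2.5% of genes tested. Pmel, a melanocyte gene in the same 1 Mb, had 1.02, 78.1 and 5.14 CPM in Synapsin-cre libraries, 162, 28.2 and 83.9 CPM in NG2-creERTM libraries, and 0.441, 0.610 and 2.67 CPM in Nestin-creERT2, with an overlap through Synapsin-cre library 1. The 52 tested neighbours of Erbb3 had median log2 ratios between -0.30 and 0.46. The highest median was in NG2-creERTM library 3, the library with the most Erbb3. There 18 of the 52 (34.6%) had their highest level, where 7.5% of all tested genes had theirs. Among the ligands the closest pair was Areg and Hbegf (r = 0.85 over 9 libraries). These correlations are descriptions over libraries that share the 3 models, and the top of so many genes is high by selection.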

How the data were processed

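Total RNA from 9 mouse glioblastoma samples had been sequenced. The authors deposited read counts per gene identifier for each sample, and the submitters' processing notes name STAR, HTSeq and the mm10 build, without versions; the annotation is not given in the sources used here. Of the strand columns, the one with the larger total was analysed (the other held 3.25 to 3.64% of their sum), and the rows that name no gene (unmapped, in several places, in no gene or ambiguous), 17.9 to 27.3% of its total, were left out. Of 46517 identifiers, 46005 matched GENCODE vM21 on GRCm38, which gave symbols, positions and exon lengths; 512 did not match. Models were taken from the labels. Genes passing filterByExpr (17947) were scaled by TMM and tested with edgeR 4.0.16 (glmQLFit, glmQLFTest; R 4.3.3), 2-sided, with Benjamini-Hochberg adjustment over all genes tested and a threshold of 0.05. The SE is the absolute log2 fold change over the square root of F. Alternatives used limma 3.58.1, DESeq2 1.42.0, other scalings and filters, unstranded counts, fits of 2 models and each library left out. The fits were tested on simulated data. At low levels, such as 2 counts of Btc, counting error is large. The members and gene lists were chosen with earlier results of these data known. Named genes are the members, list members that passed or had the largest fold changes, the 3 genes most like each member, and neighbours within 1 Mb with a library above 4 times the median of the other 8. Adam17, Errfi1, Dusp6, Spry4, Pdgfra, Olig2 and Sox10 were named for their roles. Xist, Ddx3y, Etaa1, Meis1, Cobl, Grb10, Ddc, Fignl1, Col1a2, Dcn and Lum were named after their values were seen. Promoter sequences are RefSeq's for GRCm38.p6.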

Additional observations from a re-analysis of the deposited data

How the results depend on the processing

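With all 9 libraries, edgeR called 0 of the 10 genes in each comparison, and 19 alternatives were tried. Limma voom without sample quality weights also called 0 of the 10 in each comparison and for any difference among the models. In Synapsin-cre against Nestin-creERT2 the count was 3 with DESeq2, 2 with limma voom and sample quality weights, 1 with no filter, and 2 in the fit of those models without Synapsin-cre library 1. In NG2-creERTM against Nestin-creERT2 it was 4 with DESeq2, 3 with weighted voom, 1 with no filter and 3 in the fit of those models alone. In Synapsin-cre against NG2-creERTM it was 2 with DESeq2. For any difference among the models it was 5 with DESeq2, 2 with weighted voom and 2 with no filter. Leaving out 1 library at a time gave 0 to 3 called members against Nestin-creERT2 and for any difference, 3 only without Synapsin-cre library 1, which lowered the common biological coefficient of variation of the fit to 0.503, against 0.612 with all libraries.

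Egfr, Erbb2 and Erbb3 kept their direction against Nestin-creERT2 in every alternative. The signs that turned belonged to differences that were not called. In Synapsin-cre against Nestin-creERT2, Tgfa was 0.0008 with voom and 0.42 with weighted voom, Areg was 0.0124 with voom, Btc was -0.74 with voom, -2.15 with weighted voom and -0.0151 in the fit of those models without Synapsin-cre library 1, and Nrg2 was -0.0196 with weighted voom and -0.42 in that last fit. Erbb3 in Synapsin-cre against NG2-creERTM was 0.0318 with weighted voom. With each library left out in turn, the log2 fold change in Synapsin-cre against Nestin-creERT2 ran between -1.21 and 0.30 for Erbb4, -1.09 and 0.77 for Tgfa, -1.44 and 1.30 for Areg, -0.71 and 0.63 for Btc, -3.67 and 2.32 for Ereg, and -0.42 and 1.38 for Nrg2. In NG2-creERTM against Nestin-creERT2 it ran between -0.73 and 1.08 for Erbb4, -0.33 and 2.16 for Tgfa, -0.36 and 1.60 for Hbegf, and -0.52 and 0.23 for Nrg1. In Synapsin-cre against NG2-creERTM it ran between -1.89 and 0.26 for Egfr and -1.39 and 0.10 for Erbb3. The cause was not tested. No paired analysis was possible because the replicate numbers only follow accession order and the labels link no libraries between models. Depth limits Areg, Btc and Nrg1, which had 6, 2 and 13 counts in their lowest libraries.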
